A study of Mus musculus with 28 samples.

Results

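The chemokine ligand genes of the mouse were taken as the protein-coding genes of the mm9 annotation whose symbol joins Ccl, Cxcl, Cx3cl or Xcl to a number and at most 1 letter, a rule that uses no measured value. It named 37 of 22380 protein-coding genes, with Ccl2 and Cx3cl1 among them. An H3K27ac peak was assigned to a chemokine gene where its summit lay within 100 kb of a start site of that gene and no start site of another gene was nearer. In all, 1460 of 893719 peaks met this rule, and overlapping peaks merged into 141 of 89050 regions. Regions lay near 27 of the 37 genes.

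H3K27ac marks active promoters and enhancers, and it was profiled by ChIP-seq in a subclone (NMuMG/E9) of NMuMG, a mouse mammary gland epithelial line that undergoes epithelial to mesenchymal transition when TGF-β is added. The 15 libraries held 3 of each of 5 conditions: 0h, before TGF-β; 4h and 24h of 2 ng/ml TGF-β with the solvent DMSO; and the same 2 times of TGF-β after pretreatment for 30 min with UO126 at 25 µM, called ERKi here. UO126 blocks the kinases that activate ERK. The labels of the 0h libraries name neither TGF-β nor an inhibitor, no library of ERKi without TGF-β was used here, and all libraries come from the same subclone. The labels number the replicates 1 to 3 but do not call them separate cultures, so the p-values below measure the spread between these libraries.

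Chemokines are small secreted proteins that guide leukocytes along a gradient, and they are grouped by the spacing of their first cysteines into CC, CXC, CX3C and C ligands. Each binds G-protein-coupled receptors, and many receptors accept several ligands. Inflammatory chemokine genes are low in resting epithelium and are switched on by NF-kB, AP-1 and interferon-regulated factors, whereas homeostatic chemokines such as Cxcl12 position cells in tissues without inflammation. Most inflammatory members sit beside each other in gene clusters that arose by tandem duplication. Mammary epithelial cells and the tumours derived from them are known to recruit monocytes and neutrophils through Ccl2 and the CXC ligands of the receptor CXCR2.

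The sequences under 3 distal summits are printed because they carried the largest increase and the largest decrease of the family or lay near Ccl2. They are 300-base windows of mm9, plus strand, centred on the median summit of the region, all intergenic, and capitals mark a match to the RUNX motif TGTGGTT on either strand. The window 19.9 kb upstream of the Ccl2 start is chr11:81828998-81829297, that 21.0 kb downstream of the Ccl8 start is chr11:81949548-81949847, and that 14.7 kb upstream of the Cxcl12 start is chr6:117103686-117103985.
Ccl2, 19.9 kb upstream: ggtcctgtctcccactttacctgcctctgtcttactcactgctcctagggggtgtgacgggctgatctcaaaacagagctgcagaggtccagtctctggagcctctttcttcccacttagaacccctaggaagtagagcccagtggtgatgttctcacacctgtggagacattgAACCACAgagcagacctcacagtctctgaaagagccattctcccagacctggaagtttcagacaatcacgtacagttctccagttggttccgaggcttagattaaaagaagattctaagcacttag
Ccl8, 21.0 kb downstream: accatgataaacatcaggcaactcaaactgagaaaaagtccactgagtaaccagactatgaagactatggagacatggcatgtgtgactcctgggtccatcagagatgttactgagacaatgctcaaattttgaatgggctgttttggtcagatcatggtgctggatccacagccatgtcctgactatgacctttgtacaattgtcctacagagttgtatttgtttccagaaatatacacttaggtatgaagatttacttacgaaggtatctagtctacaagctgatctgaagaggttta
Cxcl12, 14.7 kb upstream: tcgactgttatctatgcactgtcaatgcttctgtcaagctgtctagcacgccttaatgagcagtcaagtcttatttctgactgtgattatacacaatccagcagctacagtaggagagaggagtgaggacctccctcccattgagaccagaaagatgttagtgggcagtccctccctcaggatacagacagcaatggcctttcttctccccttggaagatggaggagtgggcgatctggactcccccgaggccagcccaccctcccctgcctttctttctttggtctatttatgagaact
The Ccl2 window held 1 RUNX match and no match to AP-1 (TGANTCA), CRE (TGACGTCA), ETS (CGGAAG) or the NF-kB consensus, and the other 2 windows held none of the 5 motifs on either strand. The windows were 50.3%, 40.7% and 50.3% G or C in that order.

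The 250 bases before the RefSeq start are printed for Cxcl1 and Cxcl10, whose promoters carried H3K27ac and matched the NF-kB consensus, a motif known to act in both. They come from the RefSeq promoter table of GRCm38.p6, and capitals mark matches to the NF-kB consensus in Cxcl1 and to NF-kB and AP-1 in Cxcl10.
Cxcl1: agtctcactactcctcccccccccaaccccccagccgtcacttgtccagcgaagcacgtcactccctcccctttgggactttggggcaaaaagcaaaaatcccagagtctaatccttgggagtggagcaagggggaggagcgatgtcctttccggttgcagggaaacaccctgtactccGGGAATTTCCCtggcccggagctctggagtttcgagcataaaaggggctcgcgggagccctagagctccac
Cxcl10: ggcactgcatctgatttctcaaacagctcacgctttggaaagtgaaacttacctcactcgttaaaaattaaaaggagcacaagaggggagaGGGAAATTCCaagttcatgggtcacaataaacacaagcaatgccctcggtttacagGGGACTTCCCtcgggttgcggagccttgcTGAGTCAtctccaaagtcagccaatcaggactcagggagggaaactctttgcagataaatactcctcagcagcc
In Cxcl1 a pair of overlapping NF-kB matches began 71 and 70 bases before the start. In Cxcl10 the NF-kB matches began 159 and 103 bases before the start, and an AP-1 match began 74 bases before it.

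The libraries held between 50445 and 69180 peaks. The summit pileup, the number of fragments that cover the summit of a peak, had a median of 38 to 57 per library, and replicate 2 had the lowest median in each of the 5 conditions (38 to 41). The files give no read totals, so the depth is unknown and 3 libraries per condition set the precision. A promoter peak here is one with its summit from 1000 bp before to 100 bp after a start site. Peaks with a summit further downstream were not counted, so a gene without a promoter peak may still carry H3K27ac at its start. Of 12 epithelial markers, Cdh1, Grhl2, Krt7 and Krt8 carried a promoter peak in all 15 libraries and 5 to 6 of the 12 did so per library. Epcam, Esrp1, Krt18, Ovol1, Cldn3 and Cldn7 had no summit in this window. Markers of leukocytes, which are themselves a source of chemokines, had a promoter peak for 0 to 1 of 10 genes per library, and the defining gene Ptprc had none. None of the 5 endothelial markers had a promoter peak, but of the regions near them 2 of 3 tested were higher at 4h against 0h (median log2 difference 1.08) and 2 of 2 at 24h (1.78), with 0 lower at either time (limma, adjusted p below 0.05; 3.07% and 10.5% of all regions were called higher). Whether they have a part in the chemokine results was not tested. Of 5 fibroblast markers 1 to 2 had a promoter peak, with Col1a1 in all 15 libraries. A promoter peak was found for 3 of 6 mammary markers, with Gata3 in all 15 libraries, and for 1 of 3 adipocyte markers. As a check of TGF-β, regions of 8 of its target genes were higher at 4h against 0h in 5 of 34 and lower in 0 (limma, adjusted p below 0.05; 3.07% and 1.23% of all regions), with a median log2 difference of 0.05. At 24h against 0h the direction was the other, with 3 of 28 higher and 7 lower (10.5% and 8.06% of all regions) and a median of -0.10. As a check of the inhibitor, regions of 9 ERK feedback genes had a median log2 difference of -0.38 with ERKi at 4h and of -0.38 at 24h, with 0 higher and 2 lower of 30 tested at 4h and of 28 at 24h (limma, adjusted p below 0.05; 0.386% and 4.49% of all regions were lower), and with 12 and 17 lower when the replicate number was a block in the fit (3.85% and 14.3%).

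Every library had peaks near chemokine genes, mostly outside their promoter windows. Distal here means outside every promoter window. It thus includes regions just after a start, such as those 278 bp downstream at Cxcl1 and 161 bp downstream at Cx3cl1. Of the 1460 peaks, 1308 were distal and 133 lay at the promoter of the same gene, a window that begins 1000 bp before a start site and ends 100 bp after it; the others lay in the promoter window of another gene. By region, 128 were distal and 12 were promoters, and the last, 144 bp inside Cxcl16, lay in the promoter of another gene. Of the 141 regions 114 were intergenic, 20 intronic and 7 exonic, and their median width was 601 bp. A peak was called in all 15 libraries at 33 regions near 16 genes, and in a single library at 28 regions. Cxcl1, a neutrophil attractant, led with 12 to 17 peaks per library, and Ccl2, Ccl20, Cxcl5 and Cx3cl1 followed with 5 to 14. No peak in any library was assigned to Ccl3, Ccl19, Ccl21a, Ccl21b, Ccl21c, Ccl24, Ccl26, Ccl27b, Cxcl9 or Cxcl14. These hold the CCR7 ligands of lymphoid tissue and a pair of eotaxins. Ccl21a, Ccl21b and Ccl21c, like Ccl27a and Ccl27b, are near-identical copies, and reads that map to several places may be missing from them, so their values are uncertain.

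**Figure D1:**
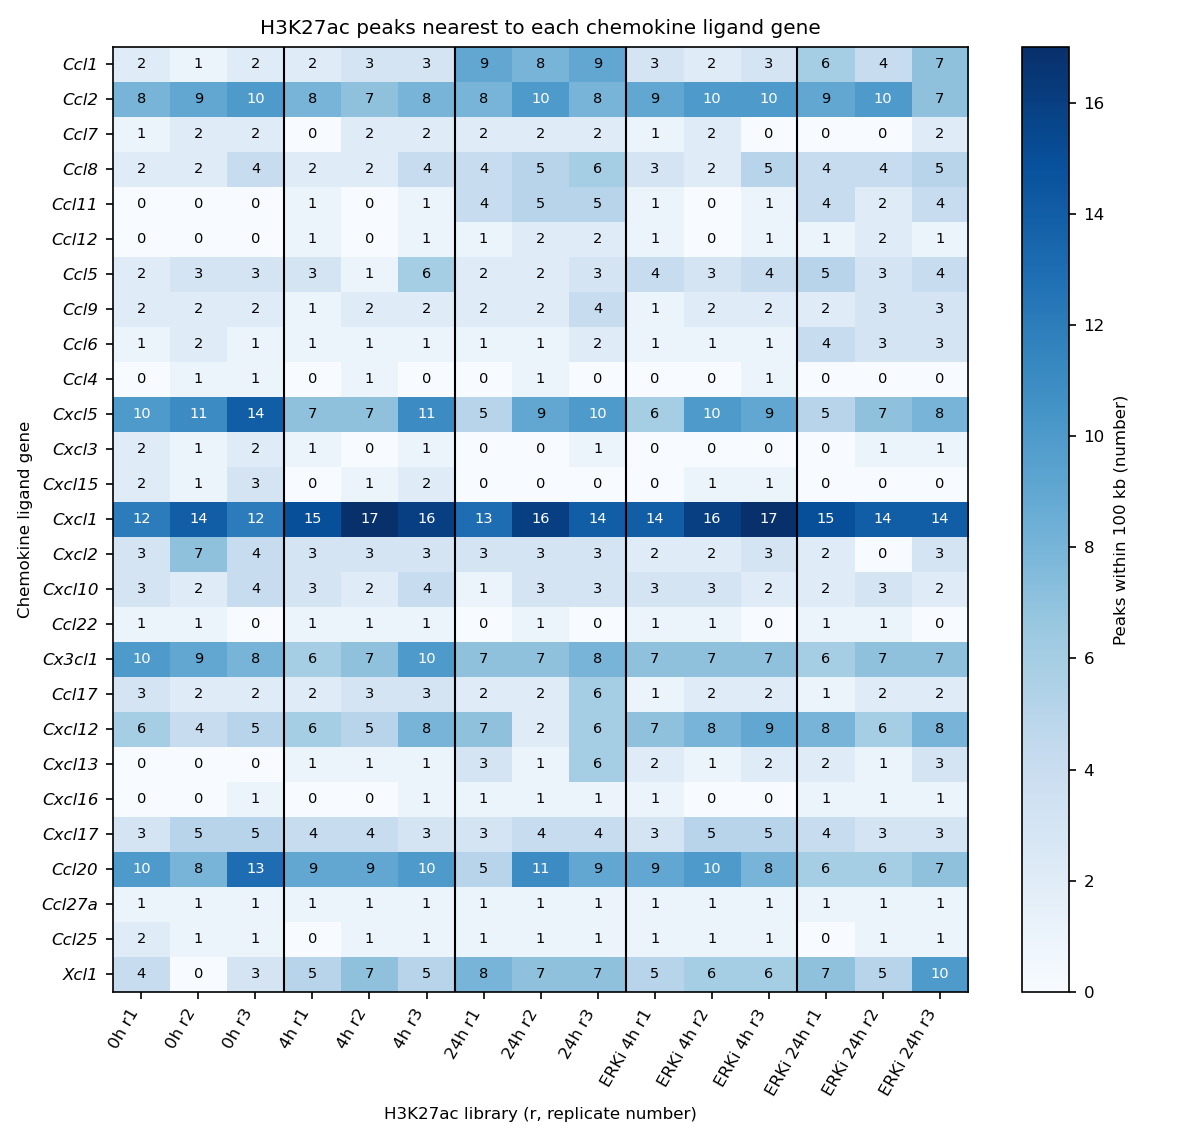
Number of H3K27ac peaks nearest to, and within 100 kb of, each chemokine ligand gene with a peak (rows) in each of the 15 libraries (columns, grouped by condition); darker blue means more peaks. Cxcl1 has the most peaks in each condition, and Ccl11 and Ccl1 have more peaks in every 24h library (4 to 5 and 8 to 9) than in any 0h library (0 and 1 to 2).

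The total number of chemokine peaks did not differ detectably between the conditions. It was 94 ± 7.81 per library at 0h (SD, n = 3), 93.3 ± 13.8 at 4h, 107 ± 14.0 at 24h, 94.7 ± 7.09 with ERKi at 4h and 97.7 ± 8.62 with ERKi at 24h (exact permutation test over 1401400 partitions of the libraries, two-sided, p = 0.533; permuted within replicate numbers, p = 0.0841). As a share of the peaks of each library it was 0.166 to 0.173% at 0h, 0.157 to 0.165% at 4h, 0.164 to 0.178% at 24h, 0.155 to 0.166% with ERKi at 4h and 0.148 to 0.161% with ERKi at 24h, and on this scale the same exact permutation test gave p = 0.0233. The 3 ERKi 24h libraries lay below all 0h and 24h libraries in this share. Promoter peaks numbered 11.3 ± 1.15 per library at 0h and 7.33 ± 2.52 at 24h, and distal peaks 81.7 ± 7.37 and 98.0 ± 13.1.

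Which chemokine regions changed was asked of each comparison with limma, on the log2 summit pileup mapped to a common distribution, in regions with a peak in all 3 libraries of both conditions, with Benjamini-Hochberg adjustment over all regions of the genome tested and a threshold of 0.05. The 3 comparisons in time share libraries with each other, and each ERKi comparison shares the DMSO libraries of its time. From 0h to 4h, the regions of Ccl8 and Ccl9 rose and a region of Cxcl5 fell: 2 higher and 1 lower of 43 tested, where 3.07% and 1.23% of all regions were called higher and lower. With the replicate number as a block, 4 were higher and 6 lower (10.2% and 9.74% of all regions). From 0h to 24h, regions of Ccl8, Ccl9 and Ccl2 rose, and a region of Cxcl12 and the promoter of Cxcl5 fell: 3 higher and 2 lower of 40 (10.5% and 8.06% of all regions), or 7 and 10 with the block (17.7% and 18.9%). Between 4h and 24h, regions of Ccl8 and Ccl1 rose and that of Cxcl12 fell: 2 higher and 1 lower of 48 (5.33% and 2.11%), or 5 and 5 with the block (13.5% and 9.87%).

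With ERKi at 4h, 1 region of 50, upstream of Cx3cl1, was lower and 0 were higher (0.386% and 0.0273% of all regions were called lower and higher); 7 had an unadjusted p below 0.05, and with the block 6 were lower and 0 higher (3.85% and 1.71%). With ERKi at 24h, regions of Cxcl12 and Cxcl1 were higher and regions of Ccl12, Ccl8 and Cx3cl1 lower than with DMSO: 2 higher and 3 lower of 47 (3.56% and 4.49%), or 6 and 10 with the block (14.0% and 14.3%). Whether the effect of ERKi differed between 24h and 4h was tested in 41 regions: limma called 0, as over all 28642 regions (0%), 4 had an unadjusted p below 0.05 (1638 over all regions), and 2, both upstream of Cxcl1, were called with the block (2.21% of all regions higher and 1.80% lower). In both directions together, 6.98%, 12.5% and 6.25% of the chemokine regions were called for 4h and for 24h against 0h and for 24h against 4h, beside 4.30%, 18.5% and 7.44% of all regions, and 2.00% and 10.6% with ERKi at 4h and 24h, beside 0.413% and 8.04%. With the block the shares were 23.3%, 42.5%, 20.8%, 12.0% and 34.0% of the chemokine regions in the same order, beside 19.9%, 36.6%, 23.4%, 5.57% and 28.3% of all regions, and 4.88% beside 4.01% for the difference between the ERKi effects. With 1 to 5 regions called in each comparison, these shares do not set the family apart. The median log2 difference of the chemokine regions was 0.00 at 4h, -0.05 at 24h and 0.01 between 4h and 24h, against -0.08, -0.05 and 0.02 over all regions, and -0.09 and -0.10 with ERKi at 4h and 24h against 0.03 and 0.00. Of these 17 calls 1 also passed when the deposited fold enrichment over the local background replaced the pileup, and 2 when libraries were scaled by their lowest background. By fold enrichment 0, 2, 1, 0 and 1 regions were called in the 5 comparisons, in the order above, and by the lowest background 0, 2, 0, 0 and 0. Fold enrichment divides by the local background, which moved with the pileup at several regions given below. A change in both cancels in this ratio, so a call lost by it does not show that the pileup was unchanged. In bulk chromatin, a mark on fewer cells and less of the mark in each cell cannot be told apart.

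**Figure D2:**
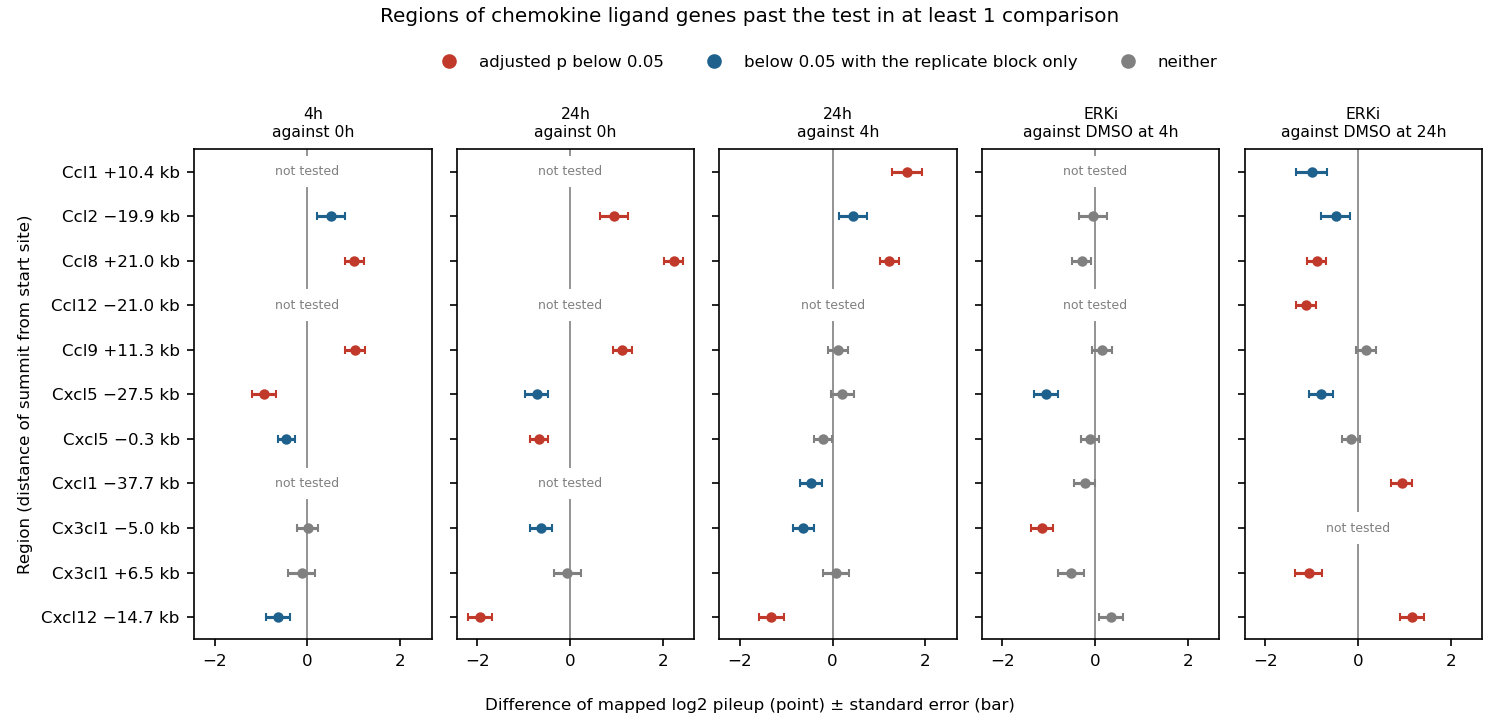
Difference of the mapped log2 summit pileup (point) with its standard error (bar) for the 11 chemokine regions past the test in at least 1 of the 5 comparisons; red marks an adjusted p below 0.05, blue one below 0.05 only with the replicate block, grey neither, and regions without a peak in all 3 libraries of both conditions were not tested. The regions of Ccl8 and Cxcl12 reach 2.23 and -1.95 at 24h against 0h and take the opposite sign, -0.89 and 1.16, with ERKi at 24h. The same 24h libraries enter both comparisons with opposite sign, so these differences are not independent. By fold enrichment they were 0.07 and 0.19 for Ccl8 and -0.19 and 0.56 for Cxcl12, in the same order of comparisons.

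Regions in which all 3 libraries of a condition had a peak and none of the other did were counted beside this test. At 4h, 2 of 99 regions with a peak were gained, near Cxcl13 and Xcl1, and 4 were lost, near Ccl20, Cxcl17, Cxcl3 and Cxcl5 (1.65% and 0.565% of all regions). At 24h against 0h, 9 of 129 were gained, near Ccl1, Ccl11, Ccl12, Ccl8, Cxcl13 and Xcl1, and 6 were lost, near Ccl20, Ccl5, Cxcl12, Cxcl15, Cxcl17 and Cxcl3 (5.98% and 2.52%). Between 4h and 24h, 5 of 122 were gained, near Ccl1, Ccl11 and Ccl8, and 2 lost, near Cxcl12 and Cxcl5 (3.10% and 1.06%). With ERKi at 4h, 0 of 97 were gained or lost (0.316% and 0.449%), and with ERKi at 24h, 4 of 119 were gained, near Ccl5, Ccl6 and Ccl9, and 0 lost (1.73% and 1.41%).

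The cluster of monocyte and eosinophil attractants on chromosome 11, from Ccl2 to Ccl1 (Ccl2, Ccl7, Ccl11, Ccl12, Ccl8 and Ccl1, chr11:81849073-82119192), gained peaks after TGF-β. Its 26 regions held 13, 14 and 18 peaks at 0h, with DMSO 14, 14 and 19 at 4h and 28, 32 and 32 at 24h, and with ERKi 18, 16 and 20 at 4h and 24, 22 and 26 at 24h, for replicates 1 to 3. All 24h libraries were above the 12 others, and the ERKi 24h libraries lay between the 0h and the 24h libraries. At 24h against 0h, 2 of 9 tested regions were higher and 0 lower (10.5% and 8.06% of all regions), or 4 and 0 with the block (17.7% and 18.9%). Of the 26 regions 7 were gained and 0 lost (5.98% and 2.52% of all regions with a peak in either condition). With ERKi at 24h, the 12 tested regions had a log2 difference below 0, with a median of -0.48; 0 were higher and 2 lower (3.56% and 4.49% of all regions), or 0 and 7 with the block (14.0% and 14.3%). The 12 also lay below 0 under median scaling and under scaling by the lowest background, whereas by fold enrichment 7 of 12 did so, with a median of -0.05. The 12 regions are neighbours and share their libraries, so they are not independent. The 24h libraries also serve the comparison with 0h. For 24h against 0h the median was 0.24 by pileup and -0.04 by fold enrichment.

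Ccl2, the main attractant of monocytes through the receptor CCR2, carried a promoter region in all 15 libraries (502 bp upstream, in an intron of the overlapping gene Gm17268). Its summit pileup was 107, 65 and 85 fragments at 0h, with DMSO 98, 55 and 100 at 4h and 131, 62 and 119 at 24h, and with ERKi 65, 61 and 107 at 4h and 107, 55 and 123 at 24h. The conditions overlapped, replicate 2 was the lowest in each, and no comparison passed the test, with or without the block. The distal region 19.9 kb upstream (chr11:81828940-81830051) had 93, 43 and 96 at 0h, with DMSO 113, 66 and 152 at 4h and 158, 86 and 210 at 24h, and with ERKi 107, 58 and 128 at 4h and 118, 67 and 180 at 24h. Within each replicate number the 24h library was the highest and the 0h library the lowest. The log2 difference at 24h was 0.94 ± 0.31 (SE; limma, adjusted p = 0.0401), a call that ended on leaving out 0h replicate 1 (0.109) or 2 (0.167), 4h replicate 1 (0.0513), 24h replicate 1 (0.0858) or 3 (0.195), or ERKi 4h replicate 1 (0.0510). By fold enrichment it was 0.45 (0.0537). With the replicate block, 4h against 0h (0.51 ± 0.12, limma, adjusted p = 0.00212), 24h against 4h (0.44, 0.00627) and ERKi at 24h (-0.48, 0.00254) passed as well. At 24.2 kb upstream the region rose with the block at 24h (0.39, adjusted p = 0.0111), and 2.70 kb upstream, in the same intron, the region fell with the block under ERKi at 24h (-0.49, 0.00374). The number of distal Ccl2 peaks was 7, 6 and 7 at 4h and 8, 9 and 9 with ERKi at 4h, which did not overlap (exact permutation test, p = 0.1, the smallest that 3 against 3 can give; 1.52% of all genes with distal peaks were higher without overlap and 1.16% lower).

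Ccl8, a further monocyte attractant, had the largest difference of the family that passed the test. Its region 21.0 kb downstream (chr11:81949345-81951202) had 29, 19 and 25 fragments at 0h, with DMSO 56, 39 and 60 at 4h and 143, 85 and 133 at 24h, and with ERKi 38, 33 and 48 at 4h and 72, 44 and 105 at 24h. The 0h, 4h and 24h libraries did not overlap, whereas ERKi 24h replicate 3 lay above 24h replicate 2. It rose by 1.01 ± 0.21 on the log2 scale at 4h (limma, adjusted p = 0.00979), by 2.23 ± 0.21 at 24h (2.7e-06) and by 1.22 ± 0.21 between 4h and 24h (0.00196), and each call held on leaving out any 1 library. With ERKi at 24h it was lower by -0.89 ± 0.21 (0.0145), a call that ended without 24h replicate 1 (0.0576) or 3 (0.0588) or without ERKi 24h replicate 1 (0.0638) or 2 (0.0587). The local background at the summit moved with the pileup: it was 4.25, 3.25 and 3.46 fragments at 0h, with DMSO 9.35, 5.44 and 9.41 at 4h and 26.6, 12.1 and 25.3 at 24h, and with ERKi at 24h 10.7, 5.91 and 13.2. By fold enrichment none of these differences passed: they were 0.12 at 4h (limma, adjusted p = 0.936) and 0.07 at 24h (0.868) against 0h, and, opposite in sign to the pileup, -0.05 for 24h against 4h (0.941) and 0.19 for ERKi at 24h (0.597). A region in the intron of Ccl8 (1.28 kb downstream of the start) was among the highest of the family, with 220, 97 and 157 at 0h and 259, 128 and 222 at 24h, and rose at 24h with the block (0.40, limma, adjusted p = 0.0018). At 24.1 kb downstream a region was called in no 0h or 4h library and in every 24h library, with 69, 30 and 78 fragments, and with ERKi in replicate 3 at 4h (24) and replicates 1 and 3 at 24h (35 and 34).

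Ccl12, a mouse monocyte attractant, and Ccl11, the eosinophil attractant eotaxin, had no peak in any 0h library. The Ccl12 region 21.0 kb upstream (chr11:81893871-81894985) had peaks of 17 and 21 fragments in 4h replicates 1 and 3, 61, 43 and 63 at 24h, 16 and 13 in ERKi 4h replicates 1 and 3, and 32, 18 and 36 with ERKi at 24h. The 24h and ERKi 24h libraries did not overlap, and ERKi was lower by -1.12 ± 0.22 (limma, adjusted p = 0.0078), a call that held without any 1 library, and by -0.51 by fold enrichment (0.180). Around Ccl11, which had 4 to 5 distal peaks in each 24h library and 0 at 0h, regions 9.09, 9.69 and 15.5 kb downstream were gained at 24h. That at 9.69 kb had 68, 17 and 61 fragments at 24h and 28, 19 and 27 with ERKi at 24h, which overlapped, and it fell with the block (-0.81 ± 0.25, limma, adjusted p = 0.0179), as did that at 15.5 kb (-0.67, 0.0143). Ccl7, another CCR2 ligand, had a single region, 2.37 kb downstream, with at most 23 fragments and a peak in 11 libraries.

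Ccl1, a T cell attractant and ligand of CCR8 at the far end of the cluster, had 8 to 9 distal peaks in each 24h library and 1 to 3 in each 0h and 4h library. The region 10.4 kb downstream (chr11:81982044-81983755) had 13 and 13 fragments in 0h replicates 1 and 3 and no peak in replicate 2, 28, 18 and 26 at 4h, 107, 31 and 95 at 24h, 27 and 21 in ERKi 4h replicates 1 and 3, and 49, 22 and 47 with ERKi at 24h. It rose by 1.60 ± 0.33 between 4h and 24h (limma, adjusted p = 0.00698), which held without any 1 library, while its fold enrichment differed by -0.02. Its local background was 5.77, 2.73 and 4.56 at 4h and 23.2, 6.0 and 20.2 at 24h. With the block it fell under ERKi at 24h (-0.998 ± 0.216, 0.00101). Regions 11.6 kb downstream and 27.1 kb upstream, the latter in an intron of the long Ccl1 annotation, were gained at 24h. Distal peak counts of Ccl11, Ccl1 and Ccl12 at 24h did not overlap those at 0h, nor did those of Cxcl13 and Xcl1 (5 of 24 genes higher and 0 lower; 12.5% and 4.51% of all genes). Between 4h and 24h those of Ccl11 and Ccl1 did not (2 of 23 higher, 0 lower; 6.78% and 2.38%). With ERKi at 24h that of Ccl1 was lower and that of Ccl6 higher without overlap (1 and 1 of 23; 3.39% lower and 4.02% higher), and at 4h those of Cxcl13, Xcl1 and Cxcl1 were higher than at 0h (3 of 23, with 0 lower; 4.36% and 1.29%). The exact permutation p of each such gene was 0.1.

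**Figure D3:**
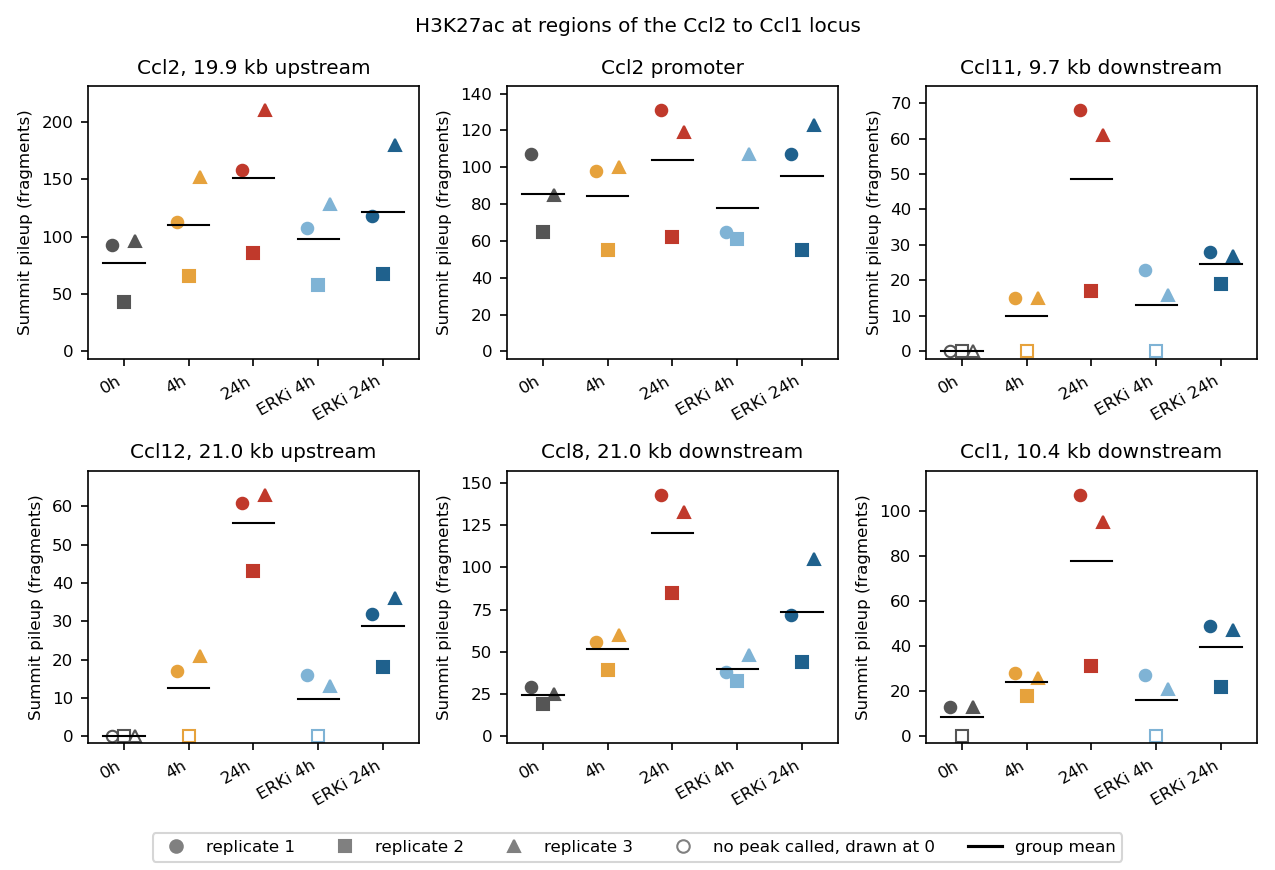
Summit pileup in fragments (vertical axis, linear) by condition at 6 regions of the Ccl2 to Ccl1 cluster; symbols mark the replicate number, lines the mean of 3 libraries and open symbols at 0 libraries without a called peak. At the Ccl8 and Ccl12 regions all 24h libraries lie above all 0h and 4h libraries, while the conditions overlap at the Ccl2 promoter.

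In the neighbouring cluster of inflammatory CC ligands (Ccl5, Ccl9, Ccl6, Ccl3 and Ccl4, chr11:83339280-83478185), a region of Ccl9 rose. Ccl9, which attracts dendritic and myeloid cells in the mouse, had at 11.3 kb downstream (chr11:83376838-83378176) 54, 23 and 39 fragments at 0h, with DMSO 89, 51 and 94 at 4h and 95, 64 and 88 at 24h, and with ERKi 75, 61 and 100 at 4h and 130, 62 and 129 at 24h. All 24h libraries were above all 0h libraries, and 4h replicate 2 lay below 0h replicate 1. The increase was 1.02 ± 0.21 at 4h (limma, adjusted p = 0.0104) and 1.13 ± 0.21 at 24h (0.00115). The call at 4h ended without 0h replicate 2 (0.0561), 4h replicate 1 (0.0513) or 4h replicate 3 (0.0552), and that at 24h held without any 1 library. The local background moved with it, from 4.69, 3.01 and 4.03 at 0h to 9.65, 5.89 and 12.8 at 24h, and by fold enrichment the differences were 0.13 at 4h (limma, adjusted p = 0.954) and 0.11 at 24h (0.820). At the Ccl9 start (91 bp downstream) a region had 15, 13 and 22 fragments in the ERKi 24h libraries, 13 in ERKi 4h replicate 3 and no peak elsewhere, and 544 bp upstream 24h replicates 1 and 3 had 21 and 24. Near Ccl5, which attracts T cells, regions 8.06 and 8.67 kb upstream had no peak in any 24h library and 42, 27 and 45 and 31, 28 and 38 fragments with ERKi at 24h. At 0h the second of these had 31, 20 and 23, and it was lost at 24h. Near Ccl6, 3.11 kb upstream in an intron of E230016K23Rik, peaks of 16, 12 and 19 fragments were called with ERKi at 24h and in no other library. Ccl4 had a single region, of at most 20 fragments, and Ccl3 none.

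The CXC ligands that attract neutrophils through CXCR2 lie together on chromosome 5 from Cxcl5 to Cxcl2 (Cxcl5, Cxcl3, Cxcl15, Cxcl1 and Cxcl2, chr5:91188325-91334935), and their peaks were on average fewest with ERKi at 24h and most at 0h. The 35 regions of the cluster held 29, 34 and 35 peaks at 0h, with DMSO 26, 28 and 33 at 4h and 21, 28 and 28 at 24h, and with ERKi 22, 29 and 30 at 4h and 22, 22 and 26 at 24h. At 24h against 0h, 0 of 12 tested regions were higher and 1 lower (10.5% and 8.06% of all regions), or 0 and 4 with the block (17.7% and 18.9%). With ERKi at 4h 0 of 15 were called (0.413% of all regions), with 0 higher and 4 lower with the block (1.71% and 3.85%). The median log2 difference at 24h was -0.15 by pileup and 0.16 by fold enrichment.

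Cxcl5, which epithelial cells secrete to attract neutrophils, held the decreases of this cluster that passed the test without the block. Its promoter (259 bp upstream, chr5:91186764-91189122) had 185, 83 and 111 fragments at 0h, with DMSO 93, 65 and 107 at 4h and 73, 55 and 99 at 24h, and with ERKi 75, 62 and 86 at 4h and 92, 53 and 82 at 24h. Within each replicate number 0h was the highest, and the conditions overlapped. The promoter fell by 0.67 on the log2 scale at 24h (SE 0.19, limma, adjusted p = 0.0208), and the call ended without 0h replicate 1 (0.0958) or 3 (0.0640) or 24h replicate 1 (0.0974) or 2 (0.0745). The local background was 44.3, 19.5 and 29.5 at 0h and 16.0, 12.6 and 18.8 at 24h, and by fold enrichment the difference was 0.20, of the opposite sign. With the block the promoter also fell at 4h (-0.45, 0.0224). At 27.5 kb upstream (chr5:91160079-91161631) the pileup was 121, 56 and 90 at 0h, with DMSO 62, 28 and 55 at 4h and 46, 47 and 60 at 24h, and with ERKi 19, 22 and 22 at 4h and 26, 30 and 40 at 24h. The ERKi libraries lay below the DMSO libraries of the same time without overlap. For 4h against 0h the difference was -0.93 ± 0.26 (limma, adjusted p = 0.0465), and the call ended on leaving out any of 11 libraries (each 0h, 4h and ERKi 4h library, 24h replicate 1 and ERKi 24h replicate 3), with adjusted p between 0.0510 and 0.179. By fold enrichment the difference was -0.13 (0.909). With the block the region fell at 24h (-0.72, 0.0065), with ERKi at 4h (-1.07 ± 0.21, 0.00148) and with ERKi at 24h (-0.79, 0.00555). Regions 52.4 and 53.0 kb upstream fell with the block at 4h (-0.47 and -0.66, adjusted p = 0.00774 and 0.00131) and at 24h (-0.57 and -0.57, 0.000555 and 0.00237), and a region 31.7 kb upstream fell with the block under ERKi at 4h (-0.93, 0.00429). That region had 88 and 68 fragments in 0h replicates 1 and 3, 35, 35 and 51 at 4h and no peak in any 24h library.

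Cxcl1, the mouse counterpart of the GRO chemokines, had strong regions throughout. The region 15.3 kb upstream had 267, 160 and 162 fragments at 0h and 278, 128 and 256 with ERKi at 24h, and the exonic region (278 bp downstream of the start) had 155, 70 and 84 at 0h, with DMSO 138, 67 and 129 at 4h and 107, 85 and 107 at 24h, and with ERKi 97, 86 and 107 at 4h and 135, 86 and 139 at 24h. Neither passed the test in any comparison. The promoter sequence printed above lies just before the start, and a summit fell within the promoter window in 8 libraries. Further away, 37.7 kb upstream (chr5:91282209-91283269), the pileup was 23 and 16 in 0h replicates 1 and 2 with no peak in replicate 3, 74, 58 and 93 at 4h, 69, 36 and 62 at 24h, 65, 51 and 62 with ERKi at 4h, and 160, 59 and 158 with ERKi at 24h. All libraries with TGF-β were above the 0h libraries, and 2 of the 3 ERKi 24h libraries were above all others. ERKi at 24h was higher by 0.94 ± 0.23 (limma, adjusted p = 0.0182), a call that ended without 24h replicate 2 (0.0695) or ERKi 24h replicate 1 (0.0777) or 3 (0.0839), and by fold enrichment the difference was 0.47 (0.147). The adjoining region 38.6 kb upstream had 54, 37 and 68 at 4h, 44, 32 and 66 at 24h, and 96, 52 and 118 with ERKi at 24h, and passed with the block only (0.73, 0.00109). With ERKi at 4h, the regions 6.02 and 10.97 kb upstream fell with the block (-0.55 and -0.42, adjusted p = 0.0218 and 0.0298).

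**Figure D4:**
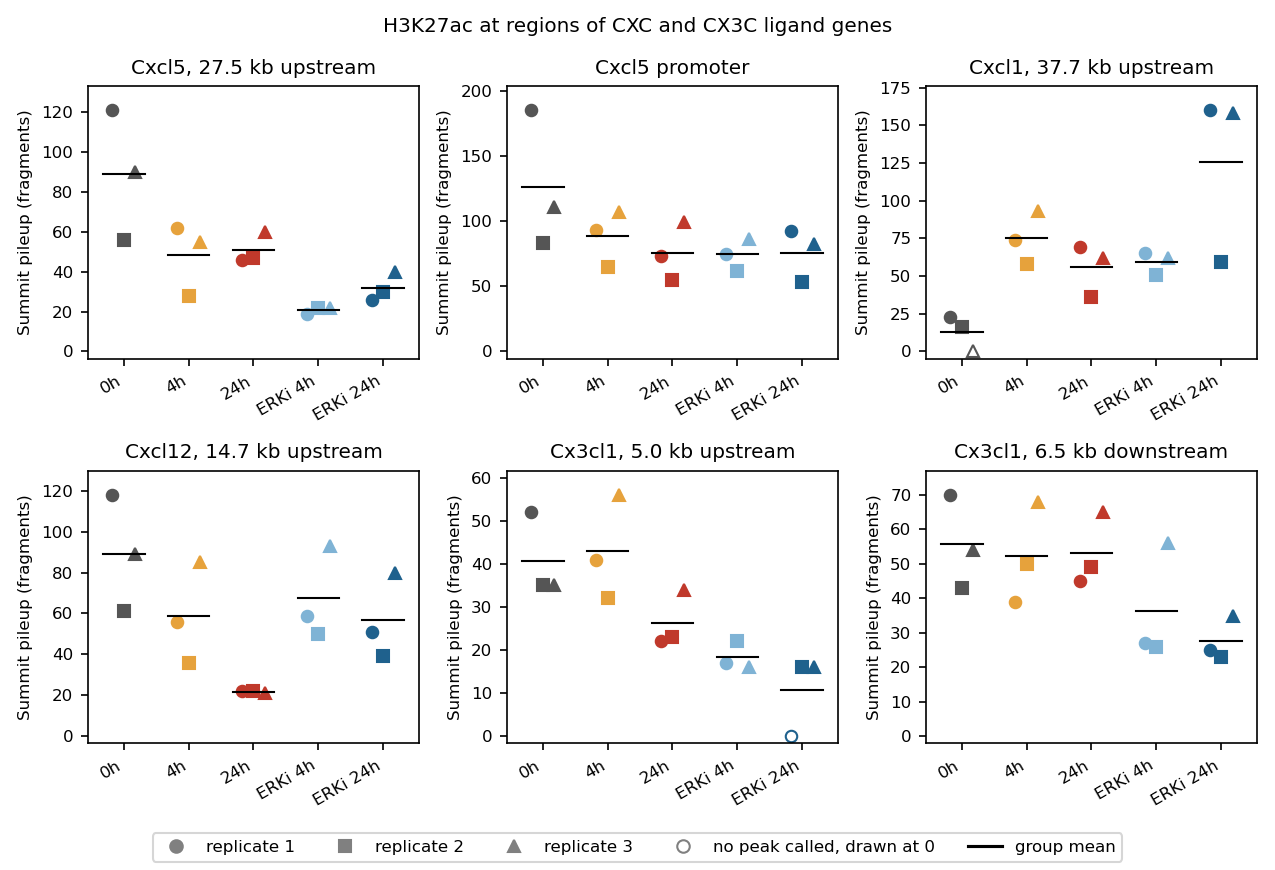
Summit pileup in fragments (vertical axis, linear) by condition at 6 regions of Cxcl5, Cxcl1, Cxcl12 and Cx3cl1; symbols mark the replicate number, lines the mean of 3 libraries and open symbols at 0 libraries without a called peak. The 24h libraries at Cxcl12 (21 to 22) lie below all others, and the ERKi libraries at Cxcl5, 27.5 kb upstream, lie below the DMSO libraries of the same time.

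At the promoters of Cxcl3 and Cxcl15, small peaks of the 0h libraries were lost. Cxcl3 had 27, 15 and 25 fragments 834 bp upstream at 0h and no peak there in any other library, and Cxcl15, known from lung epithelium, had 24, 18 and 23 at 0h 304 bp upstream and no peak in any 24h library. Ranked by pileup within its library, where 100 is the highest peak and a promoter without a peak is set to 0, the Cxcl3 promoter was at 26.6, 7.08 and 31.8 at 0h, at 0.398, 0 and 15.8 at 4h, at 0 in all 24h and ERKi 4h libraries, and at 0, 2.20 and 9.43 with ERKi at 24h. The Cxcl15 promoter was at 22.7, 15.1 and 25.8 at 0h, at 0, 10.6 and 11.6 at 4h, and at 0 in all 24h and ERKi 24h libraries. Promoter windows of 13 genes held a peak in at least 1 library, and that of Ccl25, which is annotated at 2 places and counted at both, is shared with another gene to which its peak, at 91.0 to 98.6, is nearest. Of the others, Cxcl5, at 61.4 to 87.6, and Ccl2, at 61.5 to 85.5, stood high in all 15 libraries, and Cxcl1 was at 60.4 to 83.2 in the 8 libraries with a promoter peak and at 0 in the rest. A Cxcl1 value of 0 means that the summit lay outside the window, not that the mark was absent. The region across the Cxcl1 start had a peak in all 15 libraries, with 138, 67 and 129 fragments at 4h, where all 3 values were 0.

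Cxcl10, an interferon-inducible attractant of activated T cells, had its lowest promoter peaks at 24h. Its promoter stood at the percentiles 33.0, 34.1 and 31.8 at 0h, with DMSO 32.6, 28.9 and 38.4 at 4h and 0, 8.02 and 12.0 at 24h, and with ERKi 37.7, 27.4 and 44.6 at 4h and 28.2, 24.3 and 27.4 at 24h. The 24h libraries did not overlap those at 0h, at 4h or with ERKi at 24h, each with an exact permutation p of 0.1, the smallest possible. The pileup behind these ranks was 15 to 39 fragments, so the peaks were close to the limit of calling. The region 4.74 kb upstream, in an intron of Art3, was higher with ERKi at 24h in the fit with the block only (0.66, limma, adjusted p = 0.00945). Cxcl9, its neighbour, had no peak.

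Over all promoters with a peak in either condition, those whose percentiles did not overlap were, at 4h against 0h, Cx3cl1 and Ccl27a as higher and Cxcl15 as lower (2 and 1 of 13; 3.27% and 5.01% of all promoters). At 24h against 0h they were Ccl17 as higher and Cxcl15, Cxcl3 and Cxcl10 as lower (1 and 3 of 13; 5.63% and 5.32%), and between 4h and 24h Cxcl10 and Ccl27a as lower with none higher (0 and 2 of 14; 5.08% and 2.99%). With ERKi there was none at 4h (0 of 13; 5.09% higher and 1.65% lower), and at 24h Cxcl10 was higher and none lower (1 and 0 of 12; 7.48% and 4.31%). Ranked by fold enrichment, 4 promoters did not overlap between 4h and 24h and 0 with ERKi at 24h. For Cx3cl1 only the peak 569 bp upstream of the start was ranked, with 29 and 22 fragments and no peak in the 3 libraries at 0h. The higher Cx3cl1 region 161 bp downstream, outside the window, had 106, 70 and 59 at 0h and 93, 78 and 74 at 4h, which overlapped. The Ccl17 difference also depends on which summit fell in the window, as given below. The Ccl27a values, 2.26 to 22.0, are uncertain because of its near-identical copy.

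**Figure D5:**
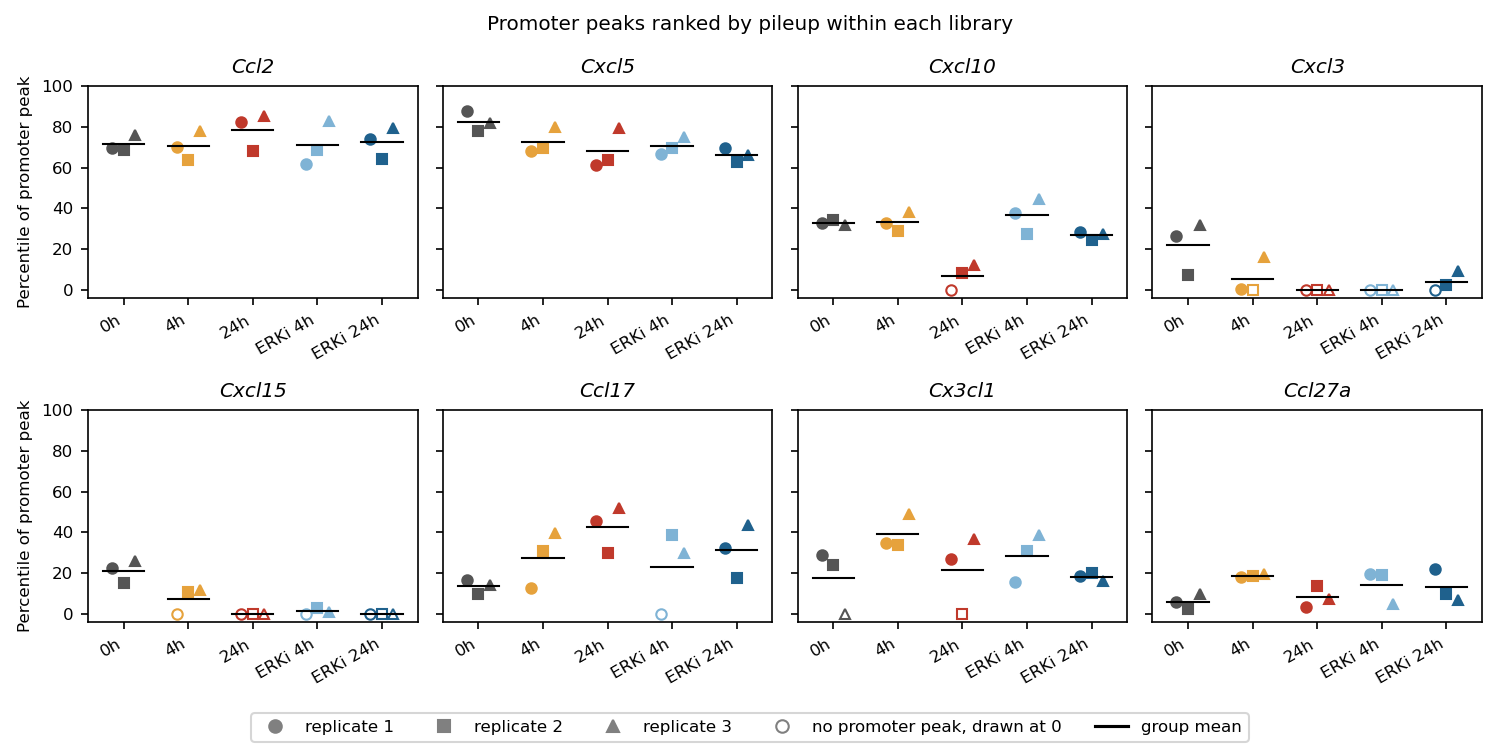
Percentile of the highest promoter peak by summit pileup within its own library (vertical axis, 0 to 100) for 8 chemokine genes in the 5 conditions; symbols mark the replicate number, lines the mean of 3 libraries and open symbols at 0 libraries without a promoter peak. Ccl2 and Cxcl5 stay above 60 in every library, and Cxcl10 is at 0 to 12.0 at 24h and above 24 elsewhere.

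Cxcl12, the homeostatic ligand of CXCR4 that stromal cells make, had less H3K27ac after TGF-β at regions 8.20 to 14.7 kb upstream of its start. The region 14.7 kb upstream (chr6:117103030-117104148) had 118, 61 and 89 fragments at 0h, with DMSO 56, 36 and 85 at 4h and 22, 22 and 21 at 24h, and with ERKi 59, 50 and 93 at 4h and 51, 39 and 80 at 24h. The 24h libraries lay below all the others. It fell by 1.95 on the log2 scale at 24h (SE 0.26, limma, adjusted p = 5.73e-05) and by 1.32 between 4h and 24h (SE 0.26, 0.00456), and both calls held without any 1 library. With ERKi at 24h it was higher by 1.16 ± 0.26 (0.0104), which ended without ERKi 24h replicate 3 (0.0549) and was the only one of the 17 calls that also passed by fold enrichment. The decrease at 4h passed with the block only (-0.63, 0.0127). The local background at this summit was 17.1, 9.17 and 15.0 at 0h, 3.39, 2.91 and 3.52 at 24h, and 5.11, 4.12 and 8.66 with ERKi at 24h. By fold enrichment neither decrease passed, with differences of -0.19 at 24h against 0h (limma, adjusted p = 0.450) and -0.09 between 4h and 24h (0.857), while that with ERKi at 24h was 0.56 (0.0318). At 14 kb upstream the neighbouring region had 100, 42 and 75 at 0h, 40, 21 and 59 at 4h and a single peak of 14 at 24h, and fell at 4h with the block (-0.95, 0.00154). The region 8.20 kb upstream had 21, 20 and 17 at 0h and was lost at 24h. Not all upstream regions fell. At 62.9 kb upstream there was a peak of 12 fragments in 0h replicate 3 only, 20, 17 and 19 at 4h, and 16 and 14 in 24h replicates 1 and 3. At 42.2 kb upstream no 0h library had a peak, and 24h replicates 1 and 3 had 21 and 22. Distal Cxcl12 peaks averaged 5 per library at 0h and 5 at 24h. No library had a peak at the Cxcl12 promoter. Cxcl13, the attractant of B cells, had no peak at 0h, and its region 27.3 kb downstream had 46, 18 and 48 at 4h, 63, 36 and 96 at 24h, 29, 26 and 37 with ERKi at 4h, and 74, 32 and 116 with ERKi at 24h. It rose between 4h and 24h with the block only (0.90, limma, adjusted p = 0.00145).

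Cx3cl1, or fractalkine, which is made as a membrane-bound adhesion molecule and shed by proteases, was lower with ERKi at a pair of regions. The region 4.96 kb upstream (chr8:97290648-97291205) had 52, 35 and 35 fragments at 0h, with DMSO 41, 32 and 56 at 4h and 22, 23 and 34 at 24h, with ERKi 17, 22 and 16 at 4h, and 16 in each of ERKi 24h replicates 2 and 3 with no peak in replicate 1. The ERKi 4h libraries lay below all 4h libraries, with a difference of -1.15 ± 0.23 (limma, adjusted p = 0.0384). The call ended on leaving out any of 10 libraries (each 0h and each 4h library, 24h replicate 1, ERKi 4h replicate 1 or 3, and ERKi 24h replicate 2), with adjusted p between 0.0501 and 0.238. By fold enrichment the difference was -0.58 (0.676). With the block the region also fell at 24h against 0h (-0.63, 0.015) and against 4h (-0.63, 0.024). An exonic region 6.55 kb downstream (chr8:97302022-97303219) had 70, 43 and 54 at 0h, with DMSO 39, 50 and 68 at 4h and 45, 49 and 65 at 24h, and with ERKi 27, 26 and 56 at 4h and 25, 23 and 35 at 24h. ERKi at 24h was lower by -1.06 ± 0.29 (0.0301), a call lost without 24h replicate 2 or 3 or any 1 of the 3 ERKi 24h libraries (adjusted p between 0.0571 and 0.112), and by fold enrichment the difference was -0.69 (0.0603). At the start itself (161 bp downstream, in an intron) the region had 106, 70 and 59 at 0h, with DMSO 93, 78 and 74 at 4h and 108, 58 and 78 at 24h, and with ERKi 73, 68 and 57 at 4h and 61, 48 and 59 at 24h, and was lower with ERKi at 24h with the block only (-0.61, 0.00302). In the opposite direction, the region 13.0 kb downstream rose at 4h (0.57, 0.0029) and with ERKi at 24h (0.56, 0.00324) and fell between 4h and 24h (-0.56, 0.00318), and that 15.8 kb downstream rose at 24h (0.47, 0.02), all of these with the block only.

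Beside Cx3cl1 lie Ccl17 and Ccl22, ligands of CCR4 on type 2 helper T cells. The Ccl17 promoter (340 bp upstream) had 20, 16 and 28 fragments at 0h, with DMSO 20, 24 and 35 at 4h and 47, 24 and 47 at 24h, and with ERKi 14, 29 and 29 at 4h and 29, 19 and 41 at 24h, and it rose at 24h with the block only (0.78 ± 0.24, limma, adjusted p = 0.0116). Its percentile at 24h, 45.7, 29.9 and 51.9, did not overlap that at 0h, 16.4, 9.87 and 14.2. In 0h replicate 3, however, a Cxcl10 peak of 27 fragments ranked at 31.8. The 14.2 thus belongs to a weaker peak than the 28 fragments of the Ccl17 region. The lack of overlap depends on which summit fell in the promoter window, and the pileups of the region overlapped. Ccl22 had a single region, 9.77 kb upstream, with at most 22 fragments. Cxcl16, the other membrane-bound ligand, carried a region 144 bp inside its gene in all 15 libraries, with 25 to 58 fragments, and no comparison passed.

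Ccl20, which attracts cells with CCR6 to mucosal surfaces, had 11 regions. At 31.5 kb upstream the pileup was 93, 39 and 87 at 0h, with DMSO 79, 56 and 92 at 4h and 44, 37 and 62 at 24h, and with ERKi 27, 40 and 41 at 4h and 52, 28 and 79 at 24h. The ERKi 4h libraries lay below all 4h libraries, and the fit with the block called the decreases with ERKi at 4h (-0.998 ± 0.197, limma, adjusted p = 0.00154), at 24h against 0h (-0.54, 0.0288) and at 24h against 4h (-0.65, 0.0154), none of which passed without it. Regions 17.2 and 14.7 kb upstream fell with the block at 24h (-0.39 and -0.52, adjusted p = 0.0353 and 0.0144), and the former rose with ERKi at 24h, again with the block only (0.54, 0.0074). Its promoter region, 47 bp downstream of the start, had peaks in 6 libraries and in none at 24h, with or without ERKi. A region 19.1 kb downstream had 17, 14 and 13 fragments at 0h and no peak in any other library.

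Xcl1, the C chemokine that attracts cross-presenting dendritic cells, gained a region 47.8 kb downstream (chr1:166817304-166819084), which had no peak at 0h, 54, 44 and 50 fragments at 4h, 107, 53 and 90 at 24h, 42, 30 and 56 with ERKi at 4h, and 107, 44 and 118 with ERKi at 24h. All 12 libraries with TGF-β had a peak and no 0h library did. Between 4h and 24h it rose with the block only (0.72 ± 0.17, limma, adjusted p = 0.00302). Xcl1 had 0 to 4 distal peaks per 0h library and 5 to 10 in each of the others. Cxcl17, a mucosal chemokine, had an intronic region 1.34 kb downstream with 102, 57 and 84 at 0h, with DMSO 70, 55 and 95 at 4h and 55, 50 and 68 at 24h, and with ERKi 76, 47 and 94 at 4h and 64, 47 and 116 at 24h, which fell at 24h with the block only (-0.45, 0.0148). A weak region 7.39 kb upstream, of 15, 12 and 13 fragments at 0h, was found in no other library.

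The motifs of the transcription factors that are known to act on chemokine genes, or downstream of ERK, were counted in 300-base windows on the summits of all regions, on both strands. The NF-kB consensus was found in 12 of 141 chemokine windows (8.51%) and in 4.11% of all 89043 windows, RUNX in 12 (8.51%) and 6.43%, AP-1 in 17 (12.1%) and 11.3%, ETS in 6 (4.26%) and 6.98%, and CRE in 0 and 0.281%. Of the 37 genes, 26 were in the RefSeq promoter table, and Ccl11, Ccl2, Ccl21c, Ccl24, Ccl26, Ccl4, Ccl5, Ccl7, Cxcl16, Cxcl17 and Cxcl5 were not. In the 250 bases before the start, 6 of the 26 matched the NF-kB consensus (Ccl20, Ccl9, Cxcl1, Cxcl10, Cxcl2 and Cxcl3), against 3.90% of 32851 promoters, 4 matched AP-1 (Ccl27a, Ccl27b, Ccl9 and Cxcl10, against 6.75%), 2 RUNX (Cxcl9 and Xcl1, against 4.40%), 1 ETS (Ccl27a, against 13.6%) and 0 CRE (1.55%). The matches describe these letters only, and neighbouring genes of a cluster share ancestry, so they are not independent.

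Genes that receive or control chemokine signals were looked at in the same way. None of 18 chemokine receptor genes had a promoter peak in any library, though a summit more than 100 bp after a start was not counted as one. Of 25 distal regions near them, 5 were tested at 24h against 0h, where a region 4.41 kb upstream of Cxcr2, the receptor for Cxcl1 and Cxcl5, rose (1.52 ± 0.31, limma, adjusted p = 0.00209) and a region 11.01 kb upstream of Xcr1, the receptor for Xcl1, fell (-1.53 ± 0.28, 0.000753), so that 1 was higher and 1 lower (10.5% and 8.06% of all regions). With ERKi at 24h, 0 of 7 were higher and 1, that of Cxcr2, lower (-1.36, 0.0131; 3.56% and 4.49% of all regions). None of 5 scavenging receptor genes had a promoter peak either. A region 21.6 kb downstream of the start of Cxcr7, which takes up Cxcl12, rose at 24h (0.70, limma, adjusted p = 0.0192), as 1 of 6 tested with 0 lower (10.5% and 8.06%). The 6 had a median log2 difference of -0.44. With the block 2 were higher and 3 lower (17.7% and 18.9%), the latter 8.17, 9.18 and 14.9 kb downstream of the same start (-0.78, -0.66 and -0.70). Between 4h and 24h that at 9.18 kb fell without the block (-0.94, limma, adjusted p = 0.0446), as 1 of 7 with 0 higher (2.11% and 5.33%). With ERKi at 24h 2 of 7 regions of these genes, 8.17 and 14.9 kb downstream of the Cxcr7 start, were higher (0.96 and 1.03, limma, adjusted p = 0.0415 and 0.0305) and 0 lower (3.56% and 4.49%). Of 14 genes of NF-kB factors and their inhibitors 13 had a promoter peak in at least 1 library and 8 in all 15, and at 24h against 0h 4 of their 44 tested regions were higher and 2 lower, which is not above the shares over all regions (10.5% and 8.06%). Of 7 cytokine genes that induce chemokines, Il6 alone had a promoter peak, in all 15 libraries, and Tnf, Il1a, Il1b, Il17a, Ifng and Ifnb1 had none in the same window. Of 5 genes for shedding, cleavage or presentation of chemokines 2 had a promoter peak in some libraries, and Pf4 and Ppbp, platelet chemokines outside the symbol rule, had none.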

How the data were processed

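H3K27ac ChIP-seq peak lists of 15 libraries were used, and 13 further samples of the series (10 RNA, 3 input) were not analysed here. The authors used bowtie for alignment to mm9 and MACS2 at default parameters for peak calling, library by library without pooling replicates. The deposited lists give for each peak a score, the fold enrichment of the summit over the local background as a ratio, and -log10 p and -log10 q values. The fold enrichment and -log10 p together fix the summit pileup in whole fragments and the local background, and a script solved for both, within 0.005 of the deposited values for all but 25 of 893719 peaks, none of which was near a chemokine gene. No read totals are in the lists, so no counting interval is given.

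Each summit was assigned to the nearest start site of any annotated gene (GENCODE, NCBIM37, which is mm9) within 100 kb. Peaks overlapping by at least 1 bp between libraries were merged into regions, with the gene and class taken from the median summit and the highest pileup of each library. The log2 pileup was mapped between libraries by the quantiles of the 26920 regions with a pileup in all 15, and tested with limma 3.58.1 in R 4.3.3 (moderated test with a mean trend, all 15 libraries in 1 fit). Peak totals, promoter percentiles and distal counts were compared by exact permutation tests over libraries, two-sided. With 3 libraries against 3 these cannot go below 0.1, or 0.25 with signs flipped within replicate numbers. Python 3.11.15, NumPy 2.4.6, SciPy 1.17.1 and pandas 2.3.3 were used. The test was checked on simulated data with independent noise in each library and no missing peaks. That check does not cover libraries paired by replicate number or regions without a peak in some libraries.

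The replicate numbers come from the labels. Deviations of same-numbered libraries from their condition means correlated at 0.307 to 0.789 in all 30 pairs (mean 0.578, over 26920 regions), so the numbers pair the libraries. The mean for other numbers, -0.280, follows largely from centring each condition on its 3 libraries and is no separate evidence. Values with the replicate number as a block are given where they change a call.

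The genes, lists and tests were chosen with earlier results of these data known. Named with values were Ccl2, Cx3cl1, each gene with a promoter peak, each with a region past the test and each with a region called in all 3 libraries of 1 condition and none of the other. Values for each library are given for Ccl2, Cx3cl1 and the 10 genes with the most calls, ties by peak number, and for some further regions chosen after their values were seen. Alternatives were other scalings, fold enrichment, stricter peaks, other windows, a fixed low pileup for uncalled libraries and leaving out each library. The limma fits among these had no block. Whether a call that ended on leaving out a library would end with the block was therefore not tested.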

Additional observations from a re-analysis of the deposited data

Results flagged for a closer look

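A pair of neighbouring regions upstream of Cxcl1 stood out because the effect of ERKi differed between 24h and 4h in the test of that difference with the replicate block. At 37.7 kb upstream the log2 effect of ERKi was greater at 24h than at 4h by 1.17 (SE 0.236, limma, adjusted p = 0.00443), and at 38.6 kb upstream by 0.856 (SE 0.227, limma, adjusted p = 0.0307). Without the block neither passed (adjusted p = 0.465 and 0.809). At 4h the ERKi libraries had 65, 51 and 62 fragments against 74, 58 and 93 with DMSO at the nearer region, and at 24h 160, 59 and 158 against 69, 36 and 62. The regions are neighbours and share libraries, so they are not independent.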

How the results depend on the processing

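Over the 17 calls of single regions and 346 alternatives, 262 kept direction and call, 80 kept direction only and 4 reversed. All 4 reversals came with fold enrichment in place of the pileup: the Cxcl5 promoter at 24h against 0h (0.198), the Ccl8 region 21.0 kb away between 4h and 24h (-0.0528) and with ERKi at 24h (0.188), and the Ccl1 region between 4h and 24h (-0.0174). The local background, by which fold enrichment divides, moved with the pileup at these regions, so a change in both cancels in the ratio.

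Counts of called regions are given in the order 4h against 0h, 24h against 0h, 24h against 4h, ERKi at 4h and ERKi at 24h. With the replicate block they were 10, 17, 10, 6 and 16, and the block ended none of the 17 calls. The difference between the ERKi effects gave 2 with the block. Scaling by the lowest background gave 0, 2, 0, 0 and 0, fold enrichment 0, 2, 1, 0 and 1, peaks with -log10 q of at least 10 gave 1, 1, 1, 0 and 0, and uncalled libraries at the lowest pileup 13, 30, 13, 0 and 14. Median scaling gave 0 for ERKi at 4h. The cause was not tested. Scaling by the lowest background moved the median of all regions from -0.05 to -0.14 at 24h against 0h and from 0.00 to 0.13 with ERKi at 24h.

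Leaving out 1 library gave 1 to 3, 3 to 7, 3 to 5, 0 to 1 and 2 to 6 calls, and 0 to 0 for the difference between ERKi effects. The counts moved by over 1.5 times were 1 at 4h without 0h replicate 2, 4h replicate 1 or 4h replicate 3, 3 at 24h without 0h replicate 1, 5 between 4h and 24h without 4h replicate 2, 0 with ERKi at 4h without the 10 libraries named for Cx3cl1, and with ERKi at 24h 2 without ERKi 24h replicate 1 or 3 and 3 without replicate 2. The total number of peaks gave p of 0.207 to 0.920 (exact permutation test) without 1 library, and 0.0233 as a share of the library's peaks.

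Promoters that did not overlap numbered 4 between 4h and 24h and 0 with ERKi at 24h by fold enrichment, and 3 with ERKi at 24h within 2500 bp. Distal counts that did not overlap numbered 1 at 4h, 1 between 4h and 24h, 0 with ERKi at 4h and 0 with ERKi at 24h for peaks with -log10 q of at least 10, and 0 with ERKi at 4h by the nearest protein-coding start. Weak peaks, of 10 to 25 fragments, sit near the limit of calling, so their loss or gain is not firm.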
